A study of Mus musculus with 8 samples.

Results

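The 39 Hox genes of the mouse lie in 4 clusters and are among the best known genes that Polycomb proteins keep silent. They were taken from the count tables by symbol, as Hoxa, Hoxb, Hoxc or Hoxd followed by digits only, which gave 39 of 27179 genes. RNA had been sequenced from natural killer T (NKT) cells of the thymus, T cells that see lipids presented by CD1d. The 4 Ezh2-KO libraries and the 4 WT libraries, all from C57BL/6 mice, were compared in 3 subsets, sorted by whether cells carried CD44 and NK1.1 on their surface. Each genotype had 2 libraries of CD44+ NK1.1- cells, described by the submitters as biological replicates, and 1 library each of CD44+ NK1.1+ and CD44- NK1.1- cells. CD44- NK1.1- cells are usually taken as the youngest of these subsets and CD44+ NK1.1+ cells as the most mature. The Cre driver, the deleted portion of Ezh2, the age and number of the mice and any sharing of mice between subsets are not stated in the sources used here.

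Hox genes encode homeodomain transcription factors that give position along the body axis in the embryo, and they are switched on in the order of their place in the cluster. Ezh2 is the catalytic subunit of PRC2, the Polycomb complex that puts methyl groups on histone H3 over such clusters, and trithorax proteins such as Kmt2a (MLL1) oppose it. In blood cells, a few Hox genes of the A and B clusters are active in stem and progenitor cells and are shut down as cells mature; Hoxb4 is known for expanding blood stem cells in mice when it is forced on.

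Library totals lay between 20308745 and 22995090 counts. A count of 0 in a library therefore allowed up to 3 reads, which is 0.131 to 0.148 CPM (the count scaled by library size) across the libraries; over the 4 Ezh2-KO libraries together it allowed 0.0358 CPM, and over the 4 WT libraries 0.0335 CPM. These limits, and the intervals on ratios of reads given here, cover counting error only. Ezh2 itself measured 83.3, 77.9, 40.4 and 78.4 CPM in Ezh2-KO libraries (CD44+ NK1.1- replicates 1 and 2, then CD44+ NK1.1+, then CD44- NK1.1-), against 113, 136, 57.2 and 109 CPM in WT libraries in the same order. It was lower in Ezh2-KO in each subset, and the change over the 3 subsets was -0.56 on the log2 scale (SE 0.07, edgeR adjusted p = 0.00402). A count over the whole gene does not show whether the part that was removed is absent. WT CD44+ NK1.1- replicates 1 and 2 differed more from each other (chi-square 44.7 per gene over 12793 genes) than the Ezh2-KO pair did (6.38 per gene over 12915 genes), so Hox values are also given without WT replicate 1 where it matters. All 9 NKT marker genes that were listed had reads, and they summed to 4018 to 8064 CPM in Ezh2-KO libraries and 4011 to 8463 CPM in WT libraries.

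Most of the Hox genes had no reads in either genotype. In all 8 libraries, 29 of the 39 genes (74.4%) stood at 0, against 31.3% of all 27179 genes and 25.8% of the 20983 protein-coding genes in the table. The HoxA cluster (chromosome 6) held 8 of these silent genes among its 11, including Hoxa2, Hoxa3, Hoxa6, Hoxa9, Hoxa10, Hoxa11 and Hoxa13. The HoxB cluster (chromosome 11, 96194316 to 96368254, build mm10) held 8 among its 10, namely Hoxb1, Hoxb2, Hoxb5, Hoxb6, Hoxb7, Hoxb8, Hoxb9 and Hoxb13. HoxC (chromosome 15, 102921131 to 103036856) held 6 among its 9, Hoxc5, Hoxc8, Hoxc10, Hoxc11, Hoxc12 and Hoxc13, and HoxD (chromosome 2, 74668225 to 74765142) held 7 among its 9, Hoxd3, Hoxd4, Hoxd9, Hoxd10, Hoxd11, Hoxd12 and Hoxd13. The silent genes include Hoxa9, a driver of blood progenitor growth in mice. Exons of 16 of the 39 genes share bases with another gene, on the same strand for 9, and reads there may go unassigned. Hoxd3 shares 62.4% and Hoxd4 52.3% of its exon bases on its own strand, so their 0 is less certain. By genotype, 30 of the 39 genes were at 0 in all Ezh2-KO libraries and 31 in all WT libraries, against 9261 and 9466 of all 27179 genes.

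A further 6 genes came near 0, with at most 3 reads in any library, which made 35 of 39 (89.7%) at or near 0 by that limit, against 43.3% of all genes. These were Hoxa4, Hoxa5, Hoxc4, Hoxc6, Hoxc9 and Hoxd8. Hoxb4, Hoxb3, Hoxd1 and Hoxa7 were the 4 genes that passed 3 reads in some library. Reads were also counted by paralog group, the numbered rows of like genes across clusters. At least 1 read fell on 10 of 27 genes of groups 1 to 9, and on 0 of 12 genes of groups 10 to 13, the genes of the hind body and limbs. Of those 10 genes, 6 are the genes near 0 named here, and the split was not tested. Group 4 held most of the reads (63 in Ezh2-KO and 120 in WT), on 3 of its 4 genes. Nearly all of them, 52 in Ezh2-KO and 116 in WT, fell on Hoxb4 alone, so this reflects 1 gene rather than the group. Over all 39 genes, 75 reads fell in Ezh2-KO libraries and 149 in WT libraries.

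**Figure D1:**
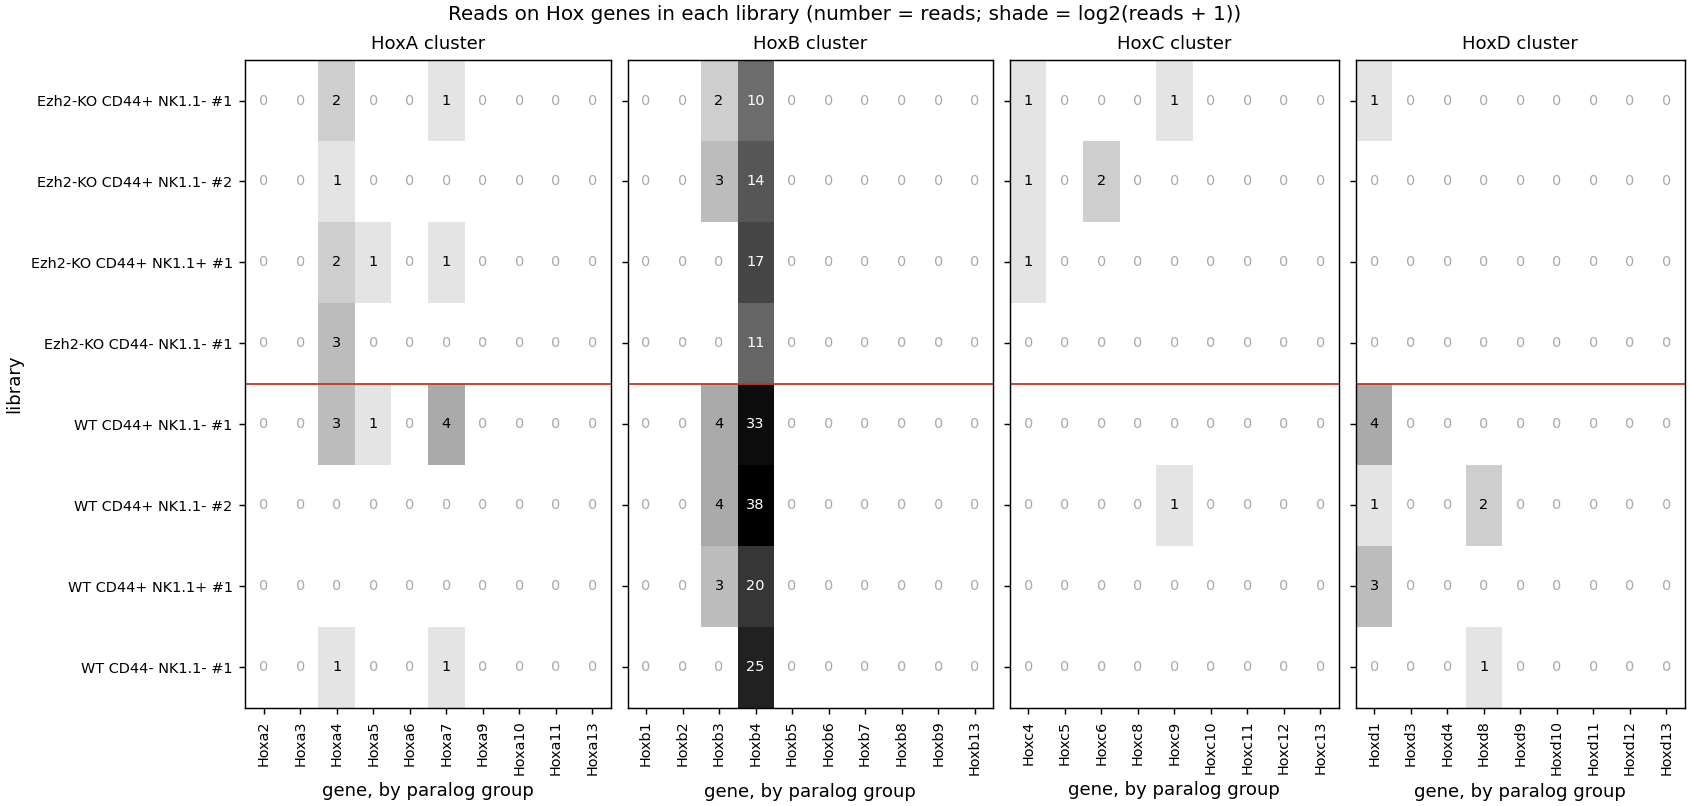
Reads on Hox genes (columns, by cluster and paralog group) in each of the 8 libraries (rows, Ezh2-KO above the line and WT below); the number is the read count and the shade its log2(reads + 1). Hoxb4 is the only column filled in every library, with 10 to 17 reads in Ezh2-KO and 20 to 38 in WT, and most columns are at 0 throughout.

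None of the Hox genes that were quiet in WT gained reads across the Ezh2-KO libraries at this depth. Of the 35 Hox genes with at most 3 reads in every WT library, 0 had more than 3 reads in every Ezh2-KO library. That pattern was rare in the whole table too: 34 of 12345 genes that were near 0 in WT (0.275%) had it, and 30 of 8042 protein-coding genes outside the Hox clusters (0.373%). With 35 genes and so low a background, a count of 0 does not set the Hox genes apart from other genes. Genes higher in every Ezh2-KO library than in every WT library numbered 0 of 39 Hox genes, against 649 of all 27179 genes (2.39%) and 3.48% of the 18673 genes with a read. The 29 Hox genes at 0 in all libraries could not meet this rule. With 10 left, this count of 0 does not set the Hox genes apart either.

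A few reads did appear only in Ezh2-KO libraries, on 2 of the 39 Hox genes, against 960 of all 27179 genes. Reads only in WT libraries fell on 1 Hox gene, against 755 of all genes. Hoxc4, a Hox gene active in lymphoid cells, had 1, 1, 1 and 0 reads in Ezh2-KO libraries (in the library order given for Ezh2) and 0 reads in each WT library. Hoxc6 had 2 reads, both in Ezh2-KO CD44+ NK1.1- replicate 2, and 0 in WT. At 3 and 2 reads, both genes lie within the 3 reads that a count of 0 allows. The reverse was seen for Hoxd8, with 0 reads in Ezh2-KO libraries and 3 in WT libraries (0, 2, 0 and 1). Hoxa5 and Hoxc9 each had 1 read in Ezh2-KO and 1 in WT.

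Hoxb4 was the only Hox gene with reads in all 8 libraries. It carried 168 of the 224 Hox reads (75.0%), which were 69.3% of the Hox reads in Ezh2-KO and 77.9% in WT. The gene (identifier 15412, chromosome 11, 96318267 to 96321638, plus strand) lies inside HoxB, within the annotated span of Hoxb3. The 250 bases before its start are shown with those of Hoxb1, a gene of the same cluster at 0 reads, since CpG-rich starts are a known seat of Polycomb silencing; CpG pairs are in capitals, and the letters are those of RefSeq on GRCm38.p6, the patch release of mm10. Starts are those of the RefSeq promoter table; for Hoxb1 this start lies a few bases inside the gene's annotated span, so its stretch runs slightly past the outermost start.
Hoxb4, chr11:96318017-96318266, plus strand: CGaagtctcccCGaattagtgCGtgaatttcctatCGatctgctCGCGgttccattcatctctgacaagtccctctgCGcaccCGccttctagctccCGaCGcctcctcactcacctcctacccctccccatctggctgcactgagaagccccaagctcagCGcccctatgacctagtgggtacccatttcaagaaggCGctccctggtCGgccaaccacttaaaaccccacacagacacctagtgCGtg
Hoxb1, chr11:96365508-96365757, plus strand: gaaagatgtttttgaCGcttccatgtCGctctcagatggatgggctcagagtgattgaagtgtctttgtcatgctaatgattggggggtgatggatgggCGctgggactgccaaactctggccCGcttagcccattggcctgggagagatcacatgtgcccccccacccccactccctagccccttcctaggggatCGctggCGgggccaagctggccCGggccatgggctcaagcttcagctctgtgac
The stretch before Hoxb4 held 14 CpG pairs and that before Hoxb1 held 7. That of Hoxb8, another HoxB gene at 0 reads, held 12, at a start inside the gene's span. Hoxb4 thus held the most pairs of these genes, with Hoxb8 close to it. No other HoxB gene had a start in the RefSeq promoter table, so the silent genes of the cluster as a whole could not be compared.

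Start regions of the whole family were then set against other genes. The RefSeq table held 24 start regions of 300 bases (250 before and 50 after the start) for 22 of the 39 genes. Starts are as the table lists them, and some, such as that of Hoxb8, lie inside the gene's full span. Their median ratio of observed to chance-level CpG was 0.626, with the middle 80% of regions, from the tenth to the ninetieth percentile, at 0.335 to 0.922. All 22271 start regions of the table had a median ratio of 0.56, whereas the 5598 regions of genes with 0 reads in all 8 libraries had 0.201. The median GC content was 57.7% in the Hox regions, 56.3% in all regions and 46.7% in the regions of genes at 0; these are descriptions and were not tested. The letters CACGTG, which read the same on both strands, stood in 5 of 24 Hox regions (20.8%) and in 7.92% of all regions. All 5 belong to HoxD genes (Hoxd1, Hoxd4, Hoxd10, Hoxd11 and Hoxd13), and no region of another cluster held it. CCAAT on either strand stood in 15 of 24 Hox regions (62.5%) and in 38.3% of all regions. The Hoxb4 region held neither.

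The level of Hoxb4 was lower in Ezh2-KO libraries, although the difference did not pass the threshold. It had 10, 14, 17 and 11 reads in Ezh2-KO libraries (CD44+ NK1.1- replicates 1 and 2, CD44+ NK1.1+ and CD44- NK1.1-), against 33, 38, 20 and 25 reads in the WT libraries in the same order. After scaling, this was 0.477, 0.630, 0.855 and 0.504 CPM in Ezh2-KO libraries, against 1.49, 1.63, 0.965 and 1.12 CPM in WT libraries. The highest Ezh2-KO library and the lowest WT library were both CD44+ NK1.1+, and the genotypes did not overlap. The mean was 0.617 ± 0.172 CPM in Ezh2-KO and 1.30 ± 0.311 CPM in WT (SD, n = 4 each, subsets mixed). In the replicated CD44+ NK1.1- subset it was 0.554 ± 0.108 CPM in Ezh2-KO and 1.56 ± 0.104 CPM in WT (SD, n = 2 each).

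Over the 3 subsets the fitted log2 difference of Hoxb4 was -1.07 (SE 0.30, 95% interval -1.76 to -0.39), with an edgeR quasi-likelihood adjusted p = 0.0556 over 13794 genes. In CD44+ NK1.1- cells it was -1.48 (SE 0.34, interval -2.31 to -0.66, edgeR adjusted p = 0.0717). Both intervals exclude 0 before adjustment for the number of genes, and neither adjusted p is under 0.05. The ratio of reads, 52 in Ezh2-KO to 116 in WT, was 0.480 after allowing for depth (counting interval 0.339 to 0.671). Non-overlap in this direction was found for 1.54% of all genes, 2.78% of the genes tested and 1.8% of 1608 genes with 0.5 to 2 times the reads of Hoxb4. In bulk libraries, fewer cells that make Hoxb4 and less Hoxb4 RNA in each cell cannot be told apart.

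By subset, the Hoxb4 difference was -0.17 in CD44+ NK1.1+ cells (interval -1.36 to 1.01, adjusted p = 0.977) and -1.15 in CD44- NK1.1- cells (interval -2.38 to 0.08, adjusted p = 0.593), each from 1 library a genotype, whose spread was taken from the replicated subset by edgeR. All genes called in those subsets were 0.95% and 0.239% of 13794. The difference between the effect in CD44+ NK1.1+ and that in CD44+ NK1.1- cells was 1.31 (interval -0.14 to 2.76, adjusted p = 1 in edgeR), and 0 of 13794 genes (0%) were called for such a difference. That between CD44- NK1.1- and CD44+ NK1.1- cells was 0.34 (interval -1.18 to 1.85, edgeR adjusted p = 0.992), where 3 genes (0.0217%) were called. Without either CD44+ NK1.1+ library the difference over the subsets was -1.38 and passed the threshold in edgeR (adjusted p = 0.0363 without the Ezh2-KO library and 0.0374 without the WT library). The remaining library of that subset is then taken up by the subset term, so both fits compare the other subsets only and are the same check. They leave out the subset where the Hoxb4 difference was smallest. In CD44+ NK1.1- cells the Hoxb4 difference was -1.55 without WT replicate 1 and -1.41 without WT replicate 2. Each of these fits leaves 1 WT library in that group, so the spread comes from the Ezh2-KO pair, the closer of the pairs. Far more genes of the whole table were called in them than in the full fit, so a call of Hoxb4 there adds nothing.

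**Figure D2:**
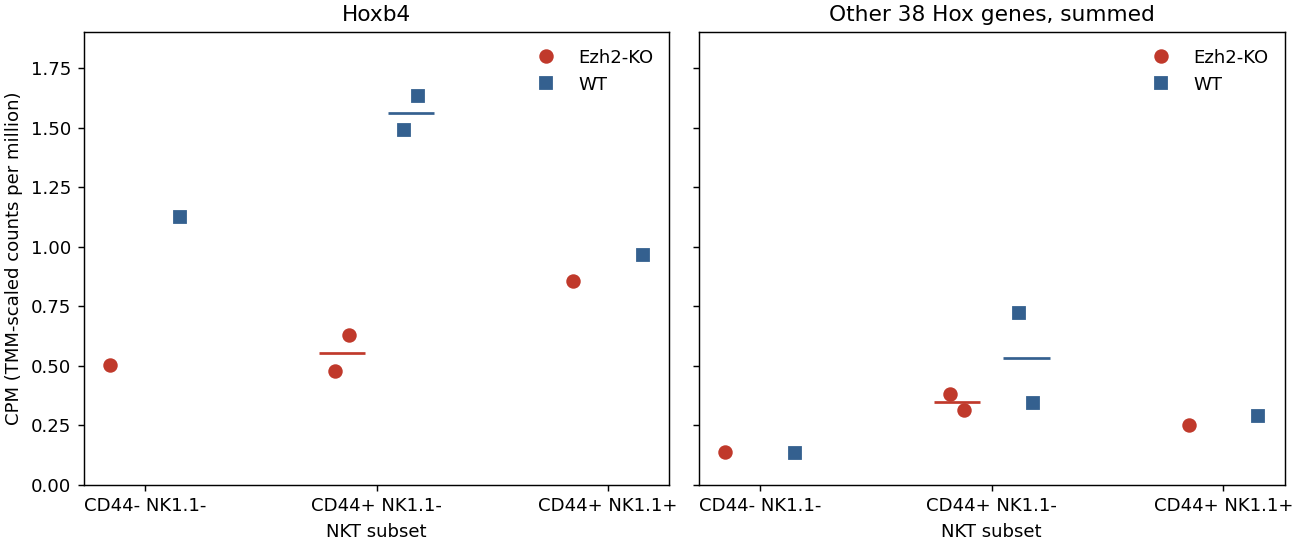
Level of Hoxb4 (left) and the summed level of the other 38 Hox genes (right) in CPM after TMM scaling, by NKT subset; each point is a library, Ezh2-KO left of WT, and short bars are means of the 2 CD44+ NK1.1- replicates. Hoxb4 lies at 0.477 to 0.855 CPM in Ezh2-KO and 0.965 to 1.63 CPM in WT, while the other 38 genes overlap between genotypes.

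Markers of blood progenitors, the cells in which Hoxb4 is best known, are given beside it. All 11 listed markers had reads, and their summed level was 47.9 to 115 CPM in Ezh2-KO libraries and 57.6 to 98.0 CPM in WT libraries, most of it Hhex, which had 946 or more reads in every library. No marker of the list was at 0 in all libraries of a genotype; Meis1 had at most 1 read in any library. Of 8 tested, 1 rose (Mecom) and 0 fell in each of the 2 comparisons; of all genes tested, 6.43% were called higher and 4.89% lower over the 3 subsets, and 3.78% higher and 1.16% lower in CD44+ NK1.1- cells. Kit, the stem cell factor receptor, was not called and had 9, 5, 16 and 10 reads in Ezh2-KO libraries, against 42, 27, 21 and 15 in WT libraries, a difference of -1.30 over the 3 subsets (SE 0.43, adjusted p = 0.0979) and -2.21 in CD44+ NK1.1- cells (SE 0.48, adjusted p = 0.0622). NKT markers also differed in the CD44+ NK1.1- subset: of 9 tested, Il2rb fell by 1.16 (edgeR adjusted p = 0.0303), Cd44 fell by 0.62 (adjusted p = 0.0436) and Cd247 rose by 0.82 (adjusted p = 0.00747). Without Ezh2-KO replicate 1 or 2 none of these 3 calls held (edgeR adjusted p of 0.11 to 0.427). Klrb1c, the gene of NK1.1, was not called and had 50 and 41.7 CPM in the Ezh2-KO replicates, against 217 and 68.5 CPM in the WT replicates. The part of any of these in the Hoxb4 difference was not tested.

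Hoxb3 and Hoxa4 were the other Hox genes with 10 or more reads in all. Hoxb3, whose span contains Hoxb4, had 2, 3, 0 and 0 reads in Ezh2-KO libraries, against 4, 4, 3 and 0 in WT libraries (CD44+ NK1.1- replicates 1 and 2, CD44+ NK1.1+ and CD44- NK1.1-). WT was higher in both CD44+ subsets and neither genotype had a read in CD44- NK1.1- cells, but the ratio of 5 to 11 reads, 0.486 after depth, had a counting interval of 0.133 to 1.52. Exons of Hoxb3 share 52.9% of their bases with the antisense gene Hoxb3os, and reads of the 2 strands cannot be told apart without a known strand setting; Hoxb4 exons share none. Hoxa4 ran the other way, with 2, 1, 2 and 3 reads in Ezh2-KO libraries and 3, 0, 0 and 1 in WT libraries. The genotypes overlapped, and its ratio of 8 to 4 reads was 2.14 after depth (counting interval 0.573 to 9.71).

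Hoxd1 and Hoxa7 had reads mostly in WT. Hoxd1 had 1, 0, 0 and 0 reads in Ezh2-KO libraries and 4, 1, 3 and 0 in WT libraries, a ratio of 0.134 (counting interval 0.00301 to 0.998) that rests on a single read in Ezh2-KO. Hoxa7 had 1, 0, 1 and 0 reads in Ezh2-KO libraries and 4, 0, 0 and 1 in WT libraries. For both genes the genotypes overlapped, and WT CD44+ NK1.1- replicate 1 gave the largest count. Without the filter on low counts, edgeR tested the 10 Hox genes with reads among 18673 genes, and none was called over the 3 subsets: Hoxd1 had an adjusted p of 0.332, Hoxc4 of 0.414, and the other genes apart from Hoxb4 (0.0565) of 0.482 or more.

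The 38 genes other than Hoxb4, taken as a sum, overlapped between genotypes. They had 8, 7, 5 and 3 reads in Ezh2-KO libraries, against 16, 8, 6 and 3 in WT libraries, which is 0.271 ± 0.104 CPM in Ezh2-KO and 0.372 ± 0.249 CPM in WT (SD, n = 4 each). The ratio of 23 to 33 reads was 0.746 after depth (counting interval 0.418 to 1.31). WT CD44+ NK1.1- replicate 1 alone gave 16 of the WT reads; without it the 3 remaining WT libraries held 17 reads, or 0.252 CPM by library size, against 0.275 CPM in the 4 Ezh2-KO libraries. All 39 genes summed to 0.888 ± 0.194 CPM in Ezh2-KO and 1.68 ± 0.492 CPM in WT, so most of that gap was Hoxb4. Per length, Hoxb4 stood at 0.242 CPM per kb in Ezh2-KO and 0.505 CPM per kb in WT, a level with 29.9% of 18673 genes with reads below it in Ezh2-KO and 35.7% in WT. Ezh2 on the same scale stood at 26.8 CPM per kb in Ezh2-KO and 38.8 CPM per kb in WT.

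In the test across genes, 1 of the 39 Hox genes, Hoxb4, passed the filter on low counts, and 0 were called in either direction. The same fit called 1561 of 13794 genes (11.3%) over the 3 subsets, 887 higher (6.43%) and 674 lower (4.89%). In CD44+ NK1.1- cells it called 682 (4.94%), 522 higher (3.78%) and 160 lower (1.16%). At an unadjusted p under 0.05 the Hox count was 1, Hoxb4, in both comparisons, against 13.2% and 9.51% of genes lower at that level. DESeq2 (Hoxb4 adjusted p = 0.116 over the 3 subsets and 0.615 in CD44+ NK1.1- cells) and limma-voom (0.0584 and 0.0826) called 0 Hox genes as well. A gene with about the reads of Hoxb4 can be called in this design: of 1608 genes with 0.5 to 2 times the reads of Hoxb4, 11.8% were called higher and 1.68% lower over the 3 subsets. Genes of so few reads can pass the filter through the libraries where they are high. The other Hox genes, at 16 reads or fewer in all, lie below that range, so these shares do not bear on them.

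Genes that lie inside or beside the clusters were followed to see where silence ends. Inside the 4 clusters lay 14 other genes of the table, all RNA genes, of which 11 were at 0 in all libraries, among them Hotair, a long RNA of HoxC known from human cells to bind PRC2, and the microRNA genes Mir10a, Mir10b, Mir196a-1, Mir196a-2, Mir196b and Mir615. A library of this kind does not capture mature microRNAs, so their 0 refers to longer transcripts. Mira, Gm11538 and Hoxd3os1 were the 3 with reads. Mira, at the HoxA cluster, had 1, 0, 2 and 0 reads in Ezh2-KO libraries and 3, 0, 2 and 1 in WT libraries.

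Silence reached past the cluster ends at some sides and stopped short of well expressed genes at others. Evx1, next after HoxA, Evx2, next before HoxD, and Ttll6, next before HoxB, were at 0 in all 8 libraries. So was Calcoco2, which lies beyond Ttll6. Skap1, the next gene after HoxB, encodes an adaptor of T cell receptor signalling and had 31851 reads in Ezh2-KO libraries and 33863 in WT libraries; its nearer end lies 96316 bases from the cluster. Its level was 375 ± 14.9 CPM in Ezh2-KO and 384 ± 32.4 CPM in WT (SD, n = 4 each), a difference of -0.03 (SE 0.06, edgeR adjusted p = 0.801). Skap2, the like gene before HoxA, had 828 reads in Ezh2-KO and 1121 in WT and was not called (-0.37, SE 0.11, edgeR adjusted p = 0.0651).

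Mtx2 was the only neighbour called over the 3 subsets among the 20 tested, 3 protein-coding genes having been taken on each side of each cluster. Of all genes, 11.3% were called, so 1 of 20 is no more than the background. Mtx2 encodes metaxin 2, a protein of the outer mitochondrial membrane, and lies 60670 bases after HoxD (chromosome 2, 74825812 to 74876748). It had 77.0, 75.6, 44.1 and 74.3 CPM in Ezh2-KO libraries, against 45.6, 51.5, 30.2 and 57.3 CPM in WT libraries (CD44+ NK1.1- replicates 1 and 2, CD44+ NK1.1+ and CD44- NK1.1-). Ezh2-KO was higher within each subset, while the Ezh2-KO CD44+ NK1.1+ library lay below WT libraries of the other subsets. It rose by 0.56 (SE 0.07, edgeR adjusted p = 0.00393) over the 3 subsets and by 0.65 in the CD44+ NK1.1- subset (SE 0.11, adjusted p = 0.0268). Against a fold of 1.5 neither call held (adjusted p = 1), and the second was lost without Ezh2-KO replicate 1 (adjusted p = 0.333) or 2 (0.299). The HoxD genes and Evx2 lie between Mtx2 and Lnpk, the next expressed gene on the far side, which was not called (-0.08, SE 0.07, edgeR adjusted p = 0.506).

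**Figure D3:**
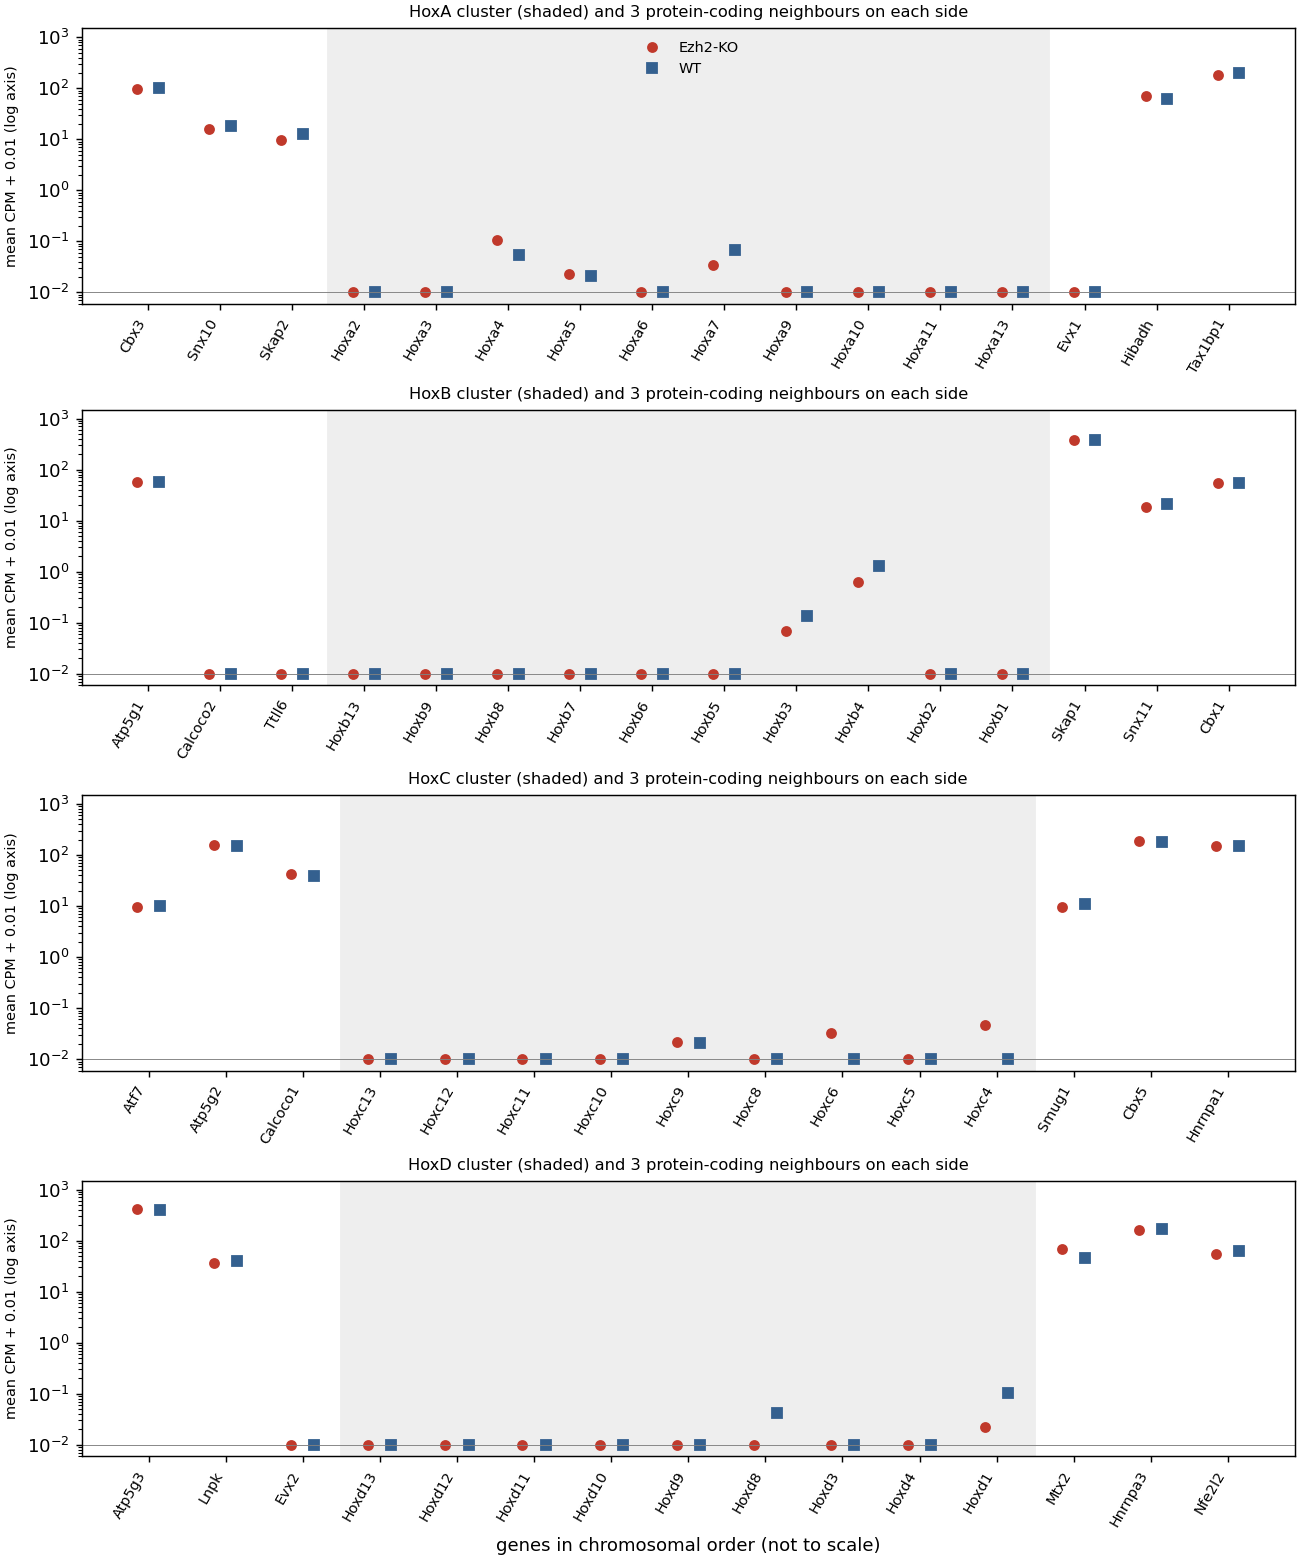
Mean level in CPM + 0.01 (log axis) of genes of each Hox cluster (shaded) and of 3 protein-coding neighbours on each side, in order of their start on the chromosome and not to scale; circles are means of 4 Ezh2-KO libraries, squares of 4 WT libraries, and the line marks 0 reads. Skap1 stands at 375 CPM in Ezh2-KO and 384 CPM in WT, beside a HoxB cluster whose highest gene, Hoxb4, stands at 0.617 CPM in Ezh2-KO and 1.30 CPM in WT.

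The homeodomain cofactors that bind DNA together with Hox proteins, the PBC and MEIS/PREP families, were largely present. Of 9 listed genes 5 were tested, and 1 rose and 0 fell in both comparisons, beside 6.43% of all genes called higher over the 3 subsets and 3.78% in CD44+ NK1.1- cells; the median log2 difference of the 5 was 0.09 over the 3 subsets, against -0.01 for all genes tested. Pbx3, a PBC partner that stabilises Hox proteins on DNA, was the gene that rose. It measured 10.9, 8.64, 11.9 and 6.78 CPM in Ezh2-KO libraries, against 3.16, 2.97, 5.50 and 2.83 CPM in WT libraries. All Ezh2-KO libraries lay above all WT libraries, and the mean was 9.57 ± 2.31 CPM in Ezh2-KO and 3.61 ± 1.26 CPM in WT (SD, n = 4 each). The change was 1.43 (SE 0.15, edgeR adjusted p = 0.00195) over the 3 subsets, kept in all 17 alternatives tried, and 1.67 in the CD44+ NK1.1- subset (SE 0.19, adjusted p = 0.00867), where it was lost without Ezh2-KO replicate 1 (adjusted p = 0.107) or 2 (0.0542).

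The other cofactors tested showed no called difference over the 3 subsets. Pbx2 (0.15, edgeR adjusted p = 0.279), Pbx4 (0.09, adjusted p = 0.782) and Pknox1 (-0.11, adjusted p = 0.281) were expressed in every library, as was Meis3 (-0.30, adjusted p = 0.0585). Meis1, the partner of Hoxa9 in blood progenitors, had 1, 1, 0 and 1 reads in Ezh2-KO libraries and 0, 0, 1 and 0 in WT libraries. Pknox2 had 5 reads in Ezh2-KO and 1 in WT, and Meis2 had 0 in Ezh2-KO and 1 in WT.

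**Figure D4:**
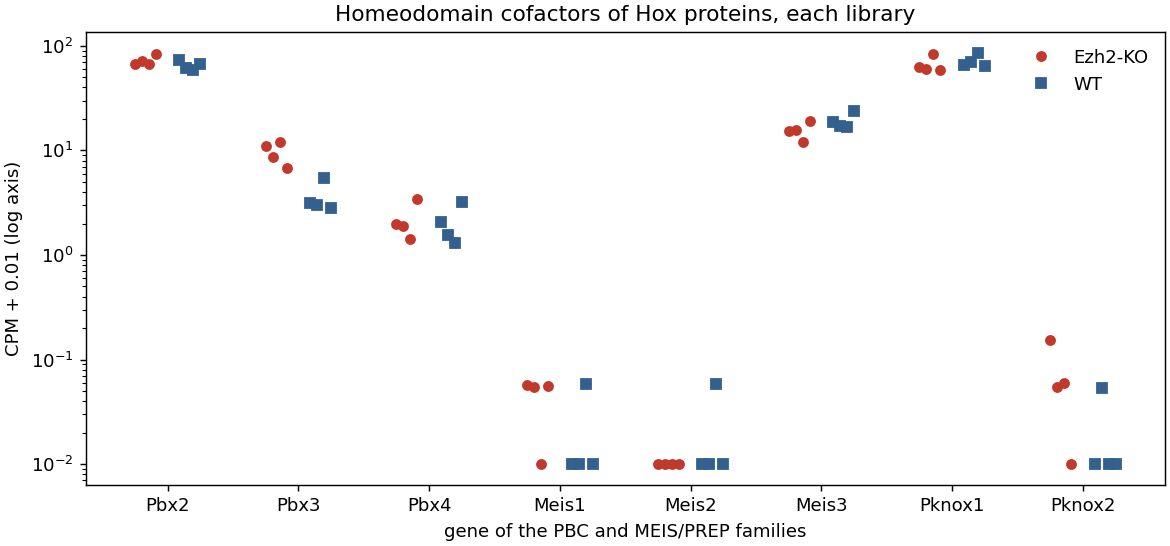
Level of Hox cofactor genes in CPM + 0.01 (log axis) in each library; circles are Ezh2-KO libraries, left of the squares, which are WT libraries, and points at 0.01 had no reads. Pbx3 is the gene whose 4 Ezh2-KO libraries (6.78 to 11.9 CPM) all lie above its 4 WT libraries (2.83 to 5.50 CPM) and that was called.

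The listed relatives of Hox genes outside the clusters were also mostly at 0. Of 21 such genes, such as the ParaHox genes Cdx2 and Pdx1 and the Dlx genes, 15 were at 0 in all libraries and 20 had at most 3 reads in any; 0 reached the test. Dlx4 was the exception, with 4, 0, 2 and 2 reads in Ezh2-KO libraries and 1, 5, 0 and 1 in WT libraries, which overlap. None of the 20 that were near 0 in WT had more than 3 reads in every Ezh2-KO library.

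Other developmental regulators that Polycomb is known to silence gave a similar picture with exceptions. Of 45 listed genes, 24 were at 0 in all libraries and 40 had at most 3 reads in any, and of the 42 near 0 in WT, 0 had more than 3 reads in every Ezh2-KO library. Only 3 were tested. Genes of so few reads can pass the filter through the group where they are high, so their calls are given as a description: 2 over the 3 subsets, where 11.3% of all genes were called, and 0 in CD44+ NK1.1- cells, where 4.94% were. The median of the 3 was -1.84, against -0.01 for all genes tested. Tbx3, a T-box factor of limb and heart, had 3, 6, 14 and 0 reads in Ezh2-KO libraries and 0 in each WT library. Set against a floor of 3 reads for the WT group it was at least 8.2-fold higher. It passed the filter through Ezh2-KO libraries alone, so its call over the 3 subsets (edgeR adjusted p = 0.0436) supports nothing further, and it was lost in 7 of 15 alternatives, among them DESeq2 (adjusted p = 0.104) and 4 that leave out a library.

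Lhx2, a LIM homeobox factor of early blood and brain, was lower in Ezh2-KO. It had 7, 11, 3 and 7 reads in Ezh2-KO libraries, against 30, 39, 12 and 25 in WT libraries, or 0.334, 0.495, 0.151 and 0.321 CPM in Ezh2-KO against 1.35, 1.68, 0.579 and 1.12 CPM in WT. The genotypes did not overlap, and with similarly few reads as Hoxb4 it fell by 1.84 over the 3 subsets (SE 0.28, edgeR adjusted p = 0.00713), in all 17 alternatives tried. In CD44+ NK1.1- cells its difference was -1.85 (SE 0.39, edgeR adjusted p = 0.0567).

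The genes of PRC2 were all expressed. Of 11 PRC2 genes tested, 0 rose and 1 fell in both comparisons, the targeted Ezh2; the median log2 difference was -0.05 over the 3 subsets, against -0.01 for all genes. Ezh1, the other methyltransferase that PRC2 can hold, was not called (-0.14, SE 0.08, edgeR adjusted p = 0.328), nor were the core subunits Eed (-0.22, SE 0.08, adjusted p = 0.11) and Suz12 (-0.03, SE 0.06, adjusted p = 0.797). Reads for each of the 3 were therefore present in Ezh2-KO libraries, 6150 for Ezh1, 5699 for Eed and 21312 for Suz12.

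Activators of Hox genes were expressed in every library, and a few were lower in Ezh2-KO. Of 14 listed genes, all tested, 0 rose and 3 fell over the 3 subsets, beside 4.89% of all genes called lower; 0 were called in CD44+ NK1.1- cells. The median log2 difference was -0.12 over the 3 subsets, against -0.01 for all genes. Kmt2a, the trithorax methyltransferase that maintains Hox expression, measured 89.2, 79.4, 157 and 118 CPM in Ezh2-KO libraries, against 126, 95, 196 and 167 CPM in WT libraries, and fell by 0.40 (SE 0.09, edgeR adjusted p = 0.0317). It was lower in Ezh2-KO within each subset, with overlap across subsets. Kdm6a, a demethylase that removes the PRC2 mark, lay at 72.2 to 86.0 CPM in Ezh2-KO and 88.1 to 96.5 CPM in WT without overlap, and fell by 0.26 (SE 0.06, adjusted p = 0.0295). Aff4, of the elongation complex that works with MLL1 fusions, lay at 112 to 136 CPM in Ezh2-KO and 137 to 185 CPM in WT, and fell by 0.39 (SE 0.09, edgeR adjusted p = 0.0349). All 3 calls lay near the threshold and were lost in several fits with a library left out, while each fall kept its sign in all 17 alternatives. Leaving out Ezh2-KO CD44+ NK1.1- replicate 1 gave edgeR adjusted p of 0.0827 for Kmt2a, 0.0968 for Aff4 and 0.105 for Kdm6a. Kmt2a and Aff4 lost the call without 6 of the 8 libraries, Kdm6a without 5. In a subset with 1 library a genotype, leaving out either library is the same check, so some of these fits repeat each other.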

How the data were processed

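The authors deposited raw read counts per gene for 8 libraries, made from total RNA (RNeasy Plus Mini) with a TruSeq RNA kit and spread over 4 lanes per library, per the labels. The submitters' processing notes name CASAVA, Subread 1.4.3-p1, featureCounts and build mm10. Which gene models were counted, and whether by strand, is not stated in those sources. Symbols and positions came from RefSeq on GRCm38.p6, and shared exon bases from a GENCODE annotation of that build.

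CPM values were computed from the deposited counts with TMM scaling. Models were fitted in R 4.3.3 with edgeR 4.0.16 (filterByExpr on 6 groups, robust quasi-likelihood test), with limma 3.58.1 (voom) and DESeq2 1.42.0 as alternatives. A model of subset plus genotype gave the comparison over the 3 subsets, with 4 residual degrees of freedom, and a model of 6 group means gave the single subsets, with 2. P-values were adjusted by Benjamini-Hochberg over 13794 genes, and a gene was called at an adjusted p under 0.05. Ratios of reads have exact binomial intervals at 95%. The code was tested on simulated data. A percentage printed beside a count of Hox genes is the share of all genes of the stated set that met the same rule.

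The Hox genes, the gene lists and the rule for named genes were chosen with earlier results of these data known. Named with values by library are Hox genes with 10 or more reads in all, Ezh2, called members of each list (up to 4) and the nearest tested neighbours of the clusters; Hox genes with fewer reads, cofactors near 0, Kit and Dlx4 were added after their values were seen. A list of RNA genes of the clusters, of which 13 of 27 were in the table and 0 were called, held 1 gene from outside them, 2610035D17Rik, so RNA genes were taken by position instead. Some genes that enter these counts are not reported here by name. Alternatives were other scaling, filters, tools and thresholds, and each library left out in turn.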

Additional observations from a re-analysis of the deposited data

How the results depend on the processing

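Counts near 0 limit these results: a Hox gene under 3 reads in a library cannot be told from 0 there. No Hox gene was called higher in any alternative tried. With each library left out in turn, 0 to 1 Hox gene was called lower over the 3 subsets, Hoxb4 where a CD44+ NK1.1+ library was left out. In CD44+ NK1.1- cells Hoxb4 was called only in fits that leave 1 WT library in that group, where far more genes were called too. In the same runs 0 to 1 Hox gene lay higher in every Ezh2-KO than in every WT library. These were Hoxc4 without Ezh2-KO CD44- NK1.1-, and Hoxa4 without WT CD44+ NK1.1- replicate 1, where the nearest libraries both hold 1 read and differ by depth only. That rule is easier to meet with a library left out, and the share of all genes meeting it in those runs is not given here. The 2 genes therefore do not set the Hox genes apart. Hoxb4 stayed lower in Ezh2-KO in all 17 alternatives of each comparison, at -1.38 to -0.91 over the 3 subsets and -1.70 to -1.30 in CD44+ NK1.1- cells. The summed Hox difference of -0.787 CPM was -0.101 without Hoxb4 and -0.927 to -0.609 with a library left out. The number of Hox genes near 0 was 35, and 32 or 38 with a limit of 1 or 10 reads.

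The number of genes called over the 3 subsets, 1561, became 264 against a fold of 1.5, 951 as the mean of the 3 subset effects and 489 to 2794 with a library left out. In CD44+ NK1.1- cells 682 became 290 against that fold and 101 to 5792 with a library left out (101 and 108 without Ezh2-KO replicates 1 and 2, 3752 and 5792 without WT replicates 1 and 2). The cause was not tested. No paired analysis was possible because the labels carry no replicate numbers.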

Other observations

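Among the blood progenitor markers, Mecom, a zinc finger factor of blood stem cells, was the gene that rose. It had 24, 22, 2 and 48 reads in Ezh2-KO libraries (CD44+ NK1.1- replicates 1 and 2, CD44+ NK1.1+ and CD44- NK1.1-), against 1, 0, 1 and 12 reads in WT libraries. Ezh2-KO was higher within each subset, and its change was 2.97 over the 3 subsets (SE 0.61, edgeR adjusted p = 0.0197). As the mean of the 3 subset effects it was 2.75 and was not called (edgeR adjusted p = 0.0711), and in CD44+ NK1.1+ cells alone it was 0.98 (edgeR adjusted p = 0.948). The call over the 3 subsets was also lost without Ezh2-KO CD44+ NK1.1- replicate 1 (edgeR adjusted p = 0.0754) or 2 (0.0767). Levels ran highest in CD44- NK1.1- cells of both genotypes, at 2.20 CPM in Ezh2-KO and 0.540 CPM in WT.

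Markers of other cells that a thymic sort could hold are given as summed levels. Of 7 B cell markers (3 tested), which summed to 2.11 to 5.13 CPM in Ezh2-KO and 1.48 to 4.24 CPM in WT, 0 were called over the 3 subsets. The 8 myeloid markers (7 tested) summed to 4.23 to 23 CPM in Ezh2-KO and 5.33 to 26.7 CPM in WT. Cebpa alone was called, as higher (1.91, edgeR adjusted p = 0.0468), a call lost in 7 of 16 alternatives, 5 of which leave out a library. It had 12, 13, 5 and 18 reads in Ezh2-KO libraries and 3, 2, 0 and 9 in WT libraries. Cebpa passed the filter through Ezh2-KO libraries alone, so its call supports nothing further. The 6 thymic epithelial markers summed to 2.84 to 5.13 CPM in Ezh2-KO and 2.15 to 5.84 CPM in WT, and the 5 erythroid markers to 0.675 to 2.02 CPM in Ezh2-KO and 0.434 to 0.766 CPM in WT, with 0 called among the 1 thymic epithelial and 3 erythroid markers that were tested. The 7 fibroblast and endothelial markers (3 tested) summed to 67.1 to 168 CPM in Ezh2-KO and 58.8 to 165 CPM in WT, mostly Pecam1; Col3a1 and Pdgfra were at 0 in all libraries, and Col1a1 rose (1.03, SE 0.16, edgeR adjusted p = 0.00745), with 69 to 98 reads in Ezh2-KO and 43 to 46 in WT.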
